A study of Mus musculus with 2 samples.

Results

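A stretch of 3 Mb on mouse chromosome 2 that holds the cystatin gene cluster and Syndig1 was examined for allelic chromatin accessibility. It comprises the windows of the deposited table on chromosome 2 that start at or after 147500001 and end at or before 150500000 (mm10, 1-based), that is 58 windows of 50 kb out of 43941 in the whole table. The 6 genes of interest were Cst3, Cst7, Cst8, Cst9, Cst10 and Syndig1, placed by their RefSeq positions on GRCm38.p6 (the mm10 assembly). Of these, 5 lie in the stretch. Cst7 (150570415 to 150578944) starts 70.4 kb past its end and is described with that limit. The stretch was chosen by the measured counts of these libraries, on the excess of the 129 allele in its bin from 149000001 to 150000000, so the allelic values below are a description and are not tested.

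ATAC-seq, which reads out where an added transposase can insert adapters into chromatin, was performed on 2 replicates of 1 group. Both libraries came from the hybrid embryonic stem cell line F121-6, a female line with 1 chromosome set from a 129 mouse and 1 from a castaneus (CAS) mouse, grown with LIF and serum on mouse embryonic fibroblasts inactivated with mitomycin C. F121-6 is a single line, the genotype of the feeder cells is not given in the sources used here, and nothing says that the replicates were separate cultures, so their spread may be technical. The comparison is between the 129 and the CAS allele within each library, and the series asks where the alleles of such hybrids differ in accessibility, replication timing, genome organization and expression.

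Cystatins are inhibitors of cysteine proteases, above all of the cathepsins that digest proteins in lysosomes. Type 2 cystatins are small secreted proteins whose genes sit side by side in a cluster. Cst3 encodes cystatin C, which is made by most tissues, whereas many of its neighbours are read mainly in testis and epididymis. Syndig1 encodes a transmembrane protein that associates with AMPA-type glutamate receptors at excitatory synapses and is known for its role in synapse development in neurons. Accessible sites in stem cells tend to gather at active or CpG-rich promoters and at distal regulatory elements.

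The promoters of 4 members are printed here because the members differ in promoter type while the windows that hold them differ in count. Each runs from 250 bases before to 50 bases after the annotated start (RefSeq, GRCm38.p6), read 5′ to 3′ on the strand of the gene, with every CpG in capitals. Cst3 lies at chr2:148875463-148875762 on the minus strand. Cst8 (chr2:148798589-148798888), Cst10 (chr2:149404999-149405298) and Syndig1 (chr2:149830533-149830832) lie on the plus strand.
Cst3: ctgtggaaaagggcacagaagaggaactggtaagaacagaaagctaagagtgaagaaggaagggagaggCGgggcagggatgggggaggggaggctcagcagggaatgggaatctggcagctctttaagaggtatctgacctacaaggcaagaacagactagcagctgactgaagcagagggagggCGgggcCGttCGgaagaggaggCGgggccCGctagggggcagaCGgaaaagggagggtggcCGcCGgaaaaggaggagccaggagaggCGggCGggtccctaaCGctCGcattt
Cst8: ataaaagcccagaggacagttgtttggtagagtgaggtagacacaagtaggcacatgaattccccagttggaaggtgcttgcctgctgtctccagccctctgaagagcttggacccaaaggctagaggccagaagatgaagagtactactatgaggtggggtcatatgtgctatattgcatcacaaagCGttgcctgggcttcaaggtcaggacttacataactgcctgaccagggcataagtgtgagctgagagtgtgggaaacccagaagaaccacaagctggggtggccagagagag
Cst10: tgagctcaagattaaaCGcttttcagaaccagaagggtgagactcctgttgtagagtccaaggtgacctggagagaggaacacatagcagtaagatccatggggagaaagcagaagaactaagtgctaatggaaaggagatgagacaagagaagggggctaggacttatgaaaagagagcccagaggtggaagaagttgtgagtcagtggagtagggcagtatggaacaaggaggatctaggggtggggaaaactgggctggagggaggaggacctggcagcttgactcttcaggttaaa
Syndig1: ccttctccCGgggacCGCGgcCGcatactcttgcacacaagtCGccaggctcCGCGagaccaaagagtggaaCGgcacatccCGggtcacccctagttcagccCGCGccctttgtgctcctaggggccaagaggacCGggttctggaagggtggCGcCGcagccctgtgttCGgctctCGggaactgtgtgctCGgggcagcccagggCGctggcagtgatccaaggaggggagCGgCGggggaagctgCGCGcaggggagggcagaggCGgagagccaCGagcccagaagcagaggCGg
The Syndig1 promoter holds 25 CpGs at 69.0% G and C, and the Cst3 promoter 13 CpGs at 60.3%. The Cst8 and Cst10 promoters hold 1 CpG each. Over the 32851 promoters in the RefSeq table the median was 7 CpGs, and 81.6% had fewer than Syndig1, 62.1% fewer than Cst3 and 5.43% fewer than Cst8 or Cst10. Of the 12 cystatin and Syndig1 genes looked up, 11 had a promoter in that table. Among the other cystatins Cst7 has 5 CpGs, Cstdc2 has 4, Cst9 and Cst12 have 3, Cstl1 and Cstdc1 have 1 and Cst13 has 0. The letters GGGCGG, the core of a GC box, are present on either strand in the Cst3 promoter and in none of the other 10, against 35.7% of all promoters. The letters TATAAA, searched on both strands, occur in the Cst13 promoter alone of the 11, against 13.6% of all promoters. These letters come from the reference genome, not from the 129 or CAS sequence, and a 50 kb count cannot be placed within a window.

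The table gives a whole number per allele and replicate for each window. The 129 columns total 44026 in replicate 1 and 59812 in replicate 2, the CAS columns 46128 and 59995, and no value in the table exceeds 18. The authors' files do not say what is counted, and the values are small, so 95% Clopper-Pearson intervals are wide and cover counting error only. They take the counts as independent draws, which was not tested. Markers of stem cells carried counts at all 10 loci, at a mean of 6.16 per window and column. Of the 18 fibroblast markers, 17 had a count, at a mean of 1.46, with 40 and 50 on 129 against 45 and 46 on CAS in replicates 1 and 2; Postn was at 0. The 8 neural markers averaged 1.76 (53 and 67 on 129, 49 and 70 on CAS), and the 5 myeloid markers 1.09 (9 and 8 on 129, 9 and 9 on CAS), with Csf1r at 0. Of all 18577 coding genes with a window, only 1503 had no count, so a count at a marker locus was the usual state. The marker means above are per column. With all columns summed, the whole table averaged 4.78 counts per window, and its windows with a coding gene 5.7. Any part of feeder cells in the values below was not tested.

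Counts in the stretch leaned to the 129 allele in both replicates. The 58 windows summed to 92 counts on 129 and 64 on CAS in replicate 1, a 129 share of 59.0% (interval 50.8 to 66.8%). In replicate 2 they summed to 161 on 129 and 117 on CAS, a share of 57.9% (51.9 to 63.8%). The mean share was 58.4% ± 0.75 (SD, n = 2), against 52.8% ± 1.06 (SD, n = 2) over the other 2943 windows of chromosome 2, a chromosome that itself leans to 129, and 49.4% ± 0.77 (SD, n = 2) over all windows. The stretch also had more counts per window, with a mean of 7.48 over all 4 columns, against 4.69 in the rest of chromosome 2 and 4.78 in the whole table. This level was uneven by replicate. Replicate 2 had 1.78 times the counts of replicate 1 in the stretch, against 1.33 times in the whole table. In the bin from 149000001 to 150000000 it had 2.27 times as many.

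The excess of 129 did not lie evenly. Most of it lay in the bin from 149000001 to 150000000, which covers Cst10, nearly all of Syndig1 and the long gene-poor intervals before each of them. In replicates 1 and 2 that bin had 36 and 75 counts on 129 against 15 and 41 on CAS, which gives shares of 70.6% (interval 56.2 to 82.5%) and 64.7% (55.2 to 73.3%). The bin before it, which holds the clustered cystatins, had 33 and 52 on 129 against 31 and 51 on CAS. The bin from 147000001 to 148000000, which begins outside the stretch, had 28 and 41 on each allele. Its second part, the 500 kb inside the stretch, leaned to 129 as well, with 10 and 15 on 129 against 6 and 10 on CAS (62.5% and 60.0%). The bin from 150000001, with zinc finger genes and Cst7, had 44 and 48 on 129 against 38 and 44 on CAS. Read as log2 ratios of 129 to CAS (pseudocount 0.5), the bin with Cst10 and Syndig1 stood at 1.05 ± 0.26 (SD, n = 2), and its neighbours at 0.06 ± 0.04 before it and 0.17 ± 0.06 after it. Of the difference of 129 minus CAS over all 58 windows, 75.0% in replicate 1 and 77.3% in replicate 2 came from the 19 windows of that bin, which are 32.8% of the windows. Without that bin the remaining 39 windows had shares of 53.3% and 53.1%, near the rest of chromosome 2 (53.6% and 52.1%).

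**Figure D1:**
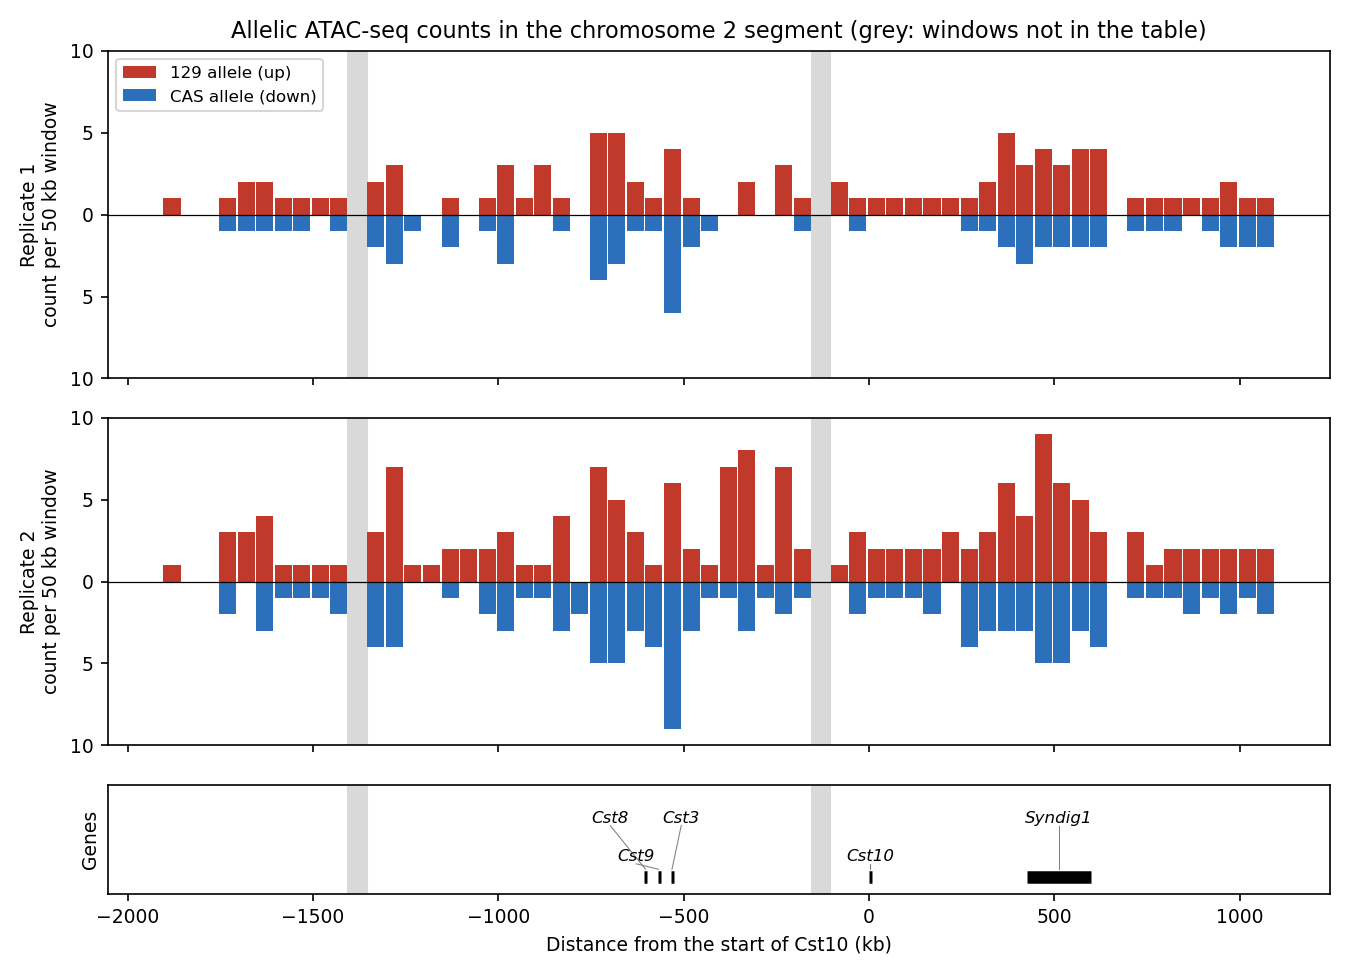
Counts per 50 kb window (vertical axes) along the stretch, by distance from the start of Cst10 in kb, for replicate 1 (top) and replicate 2 (middle), with 129 drawn upward and CAS downward; the bottom panel places 5 members and grey bands mark the 2 windows that are not in the table. From the interval before Cst10 to the end of Syndig1 the upward bars are mostly longer, whereas at Cst3 the 129 bars reach 4 and 6 against 6 and 9 on CAS.

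Window by window, 15 of the 58 were higher on 129 in both replicates and 2 were higher on CAS in both, that is 25.9% and 3.45%, where the whole table has 8.96% and 9.87%. Chromosome 2 itself leans to 129: of its other 2943 windows, 358 were higher on 129 in both and 194 on CAS. The 15 were not spread evenly either: 11 were among the 19 windows from 149000001 to 150000000, and in that bin 0 were higher on CAS in both. The other 39 windows had 4 higher on 129 (10.3%) and 2 on CAS (5.13%). In replicate 1 alone the bin had 13 windows higher on 129, 0 higher on CAS and 6 equal, where 18.1% of all windows were higher on 129 and 21.2% on CAS. In replicate 2 it had 15 higher on 129, 1 higher on CAS and 3 equal, against 26% and 26.3% of all windows. The rest of chromosome 2 had 24.8% and 15.1% in replicate 1, and 30% and 23.4% in replicate 2. The single window of the bin higher on CAS, at 149650001 to 149700000, had 2 counts on 129 and 4 on CAS in replicate 2 and 1 on each in replicate 1. A run of 12 table windows, from 149000001 to 149650000 and across Cst10, had no window higher on CAS in either replicate. It is the longest such run of the stretch, counts windows with equal alleles, and crosses the absent window at 149250001 to 149300000. It lies in the bin on which the stretch was chosen, and runs elsewhere were not counted.

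A difference of 2 or more counts in both replicates was seen on the 129 side in 5 windows of the stretch and on the CAS side in 1, where the whole table has 1.26% and 1.5% of its windows. Of the 5, 2 lie in the interval before Cst10, at 149050001 to 149100000 (2 and 8 counts on 129, 0 and 3 on CAS) and at 149150001 to 149200000 (3 and 7 on 129, 0 and 2 on CAS). Another, at 149750001 to 149800000, lies before Syndig1 over the noncoding RNA gene Gm14133 and had 5 and 6 on 129 against 2 and 3 on CAS. The last 2 lie within Syndig1 and are given with that gene. The window on the CAS side is the one that holds Cst3.

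In the interval between the cystatin cluster and Cst10 the replicates differed in level. It held 40.9% of the excess of the stretch in replicate 2 and 17.9% in replicate 1, where the interval from Cst10 to Syndig1 held more (28.6%). No coding gene lies in the 530 kb between Cst3 and Cst10. From 148900001 to 149400000 its 9 windows in the table had 10 and 32 counts on 129 against 5 and 14 on CAS, shares of 66.7% (interval 38.4 to 88.2%) and 69.6% (54.3 to 82.3%). The first pair of windows, nearest Cst3, together had 1 and 3 counts on 129 against 3 and 4 on CAS. The next 4, from 149000001 to 149200000, had 5 and 23 on 129 against 0 and 7 on CAS. Those 4 windows had 6.00 times as many counts in replicate 2 as in replicate 1 (30 and 5), whereas the whole table had 1.33 times as many. The window at 149000001 to 149050000 had 0 counts on both alleles in replicate 1, and 7 on 129 against 1 on CAS in replicate 2, so its excess rests on replicate 2. A window at 0 in replicate 1 with 8 or more counts in replicate 2 occurs 24 times in the table. Without these 4 windows the other 15 of the bin still had 31 and 52 on 129 against 15 and 34 on CAS, shares of 67.4% and 60.5%.

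**Figure D2:**
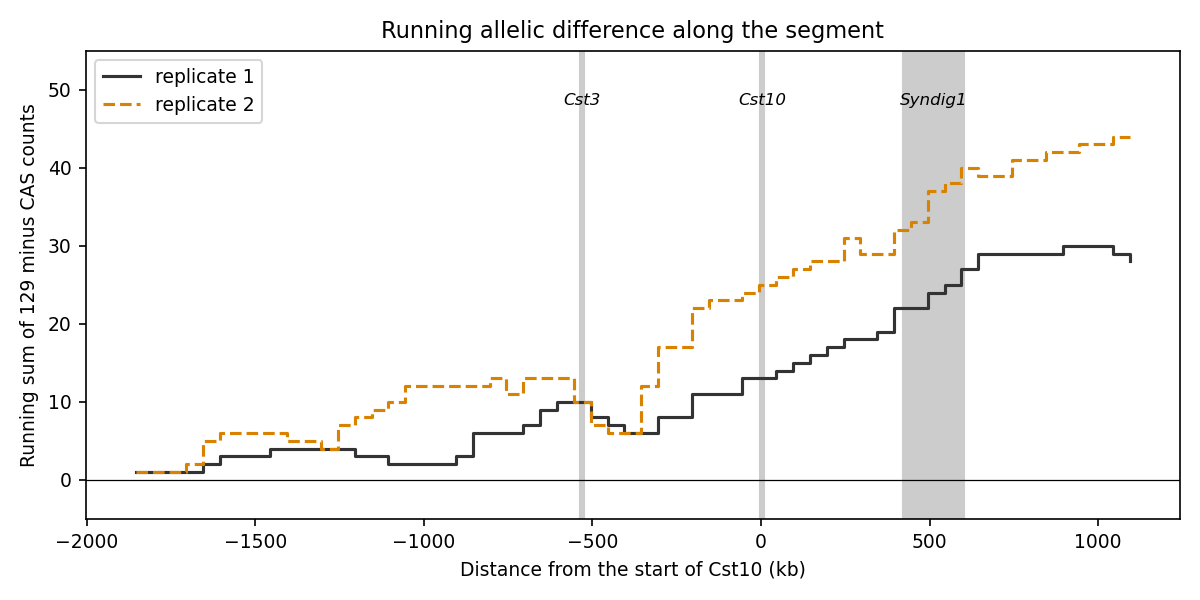
Running sum of 129 minus CAS counts (vertical axis) along the stretch by distance from the start of Cst10 in kb, for replicate 1 (solid) and replicate 2 (dashed), with Cst3, Cst10 and Syndig1 shaded. Both lines stand at 6 at 149000001, after a dip at Cst3, and climb to 27 in replicate 1 and 40 in replicate 2 at 150000000, ending at 28 and 44.

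The clustered cystatins themselves did not carry the excess. Their genes, from Cstl1 to Cst3, fall in 3 windows (148750001 to 148900000) that summed to 7 and 10 counts on 129 against 8 and 16 on CAS in replicates 1 and 2. The shares were 46.7% (interval 21.3 to 73.4%) and 38.5% (20.2 to 59.4%), a mean of 42.6% ± 5.80 (SD, n = 2). With so few counts the interval of either replicate includes both 50% and the share of the whole stretch.

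Cst3 (148871722 to 148875512), the gene of the secreted protease inhibitor cystatin C, shares its window with the annotated start of Cstdc2, a cystatin domain gene. That window was the richest of the stretch, with 25 counts over the 4 columns, more than 99.1% of all windows. It had 4 and 6 counts on 129 against 6 and 9 on CAS. CAS was the higher allele in both replicates, with a 129 share of 40.0% in each (intervals 12.2 to 73.8% and 16.3 to 67.7%).

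Cst9 (148835147 to 148838737), first described as testatin in the fetal testis, lies in the window at 148800001 to 148850000 together with Cst13 and parts of Cst8 and Cstdc2. The window had 1 and 1 on 129 against 1 and 4 on CAS. The alleles were equal in replicate 1, and CAS was higher in replicate 2. Cst8 (148798839 to 148805596), the gene of the epididymal cystatin CRES, spans the border between that window and the one before it. Over both it had 3 and 4 on 129 against 2 and 7 on CAS, so the replicates pointed in opposite directions. Since both genes share the window at 148800001, their values are not independent. The window at 148750001 to 148800000, which also holds Cstl1, Cst11, Cstdc1 and Cst12, had 2 and 3 on 129 against 1 and 3 on CAS.

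Cst10 (149405249 to 149410278), a cystatin described in mouse cartilage cells, stands apart from the cluster. Its window, 149400001 to 149450000, had 1 and 2 counts on 129 against 0 and 1 on CAS. The difference was 1 count in each replicate, and the window held 4 counts in all, more than 50.1% of the windows of the table. The excess around Cst10 lay mostly in the flanking windows, which hold no coding gene. From Cst10 to Syndig1, over 421 kb without a coding gene, 7 windows summed to 12 and 20 on 129 against 4 and 14 on CAS, shares of 75.0% (interval 47.6 to 92.7%) and 58.8% (40.7 to 75.4%).

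Syndig1 (149830783 to 150004392), which covers 173.6 kb, had the most counts of the 6 members and leaned to 129 in both replicates. Its 5 windows summed to 18 and 27 on 129 against 11 and 20 on CAS, shares of 62.1% (interval 42.3 to 79.3%) and 57.4% (42.2 to 71.7%), a mean of 59.8% ± 3.27 (SD, n = 2). The window with its annotated start, 149800001 to 149850000, had 3 and 4 on 129 against 3 and 3 on CAS, nearly equal. The next window, 149850001 to 149900000, had 4 and 9 on 129 against 2 and 5 on CAS and was the third richest window of the stretch. At 149900001 to 149950000 there were 3 and 6 on 129 against 2 and 5 on CAS, and at 149950001 to 150000000 there were 4 and 5 on 129 against 2 and 3 on CAS. The last window, 150000001 to 150050000, which holds only the end of the gene, had 4 and 3 on 129 against 2 and 4 on CAS and so turned between replicates. The excess within Syndig1 was thus in the windows of the gene body past the start, in 3 of 5 windows in both replicates.

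Cst7 encodes cystatin F, an inhibitor found in leukocytes. Its window, 150550001 to 150600000, which it shares with part of Apmap, had 1 and 2 on 129 against 0 and 1 on CAS, the same 4 values as the Cst10 window. The window between it and the end of the stretch was at 0 in all 4 columns. Just inside the limits of the stretch, the first window had 1 and 1 on 129 against 0 and 0 on CAS, and the last had 1 and 2 on 129 against 2 and 2 on CAS. Just outside its start, the window at 147450001 had 0 and 0 on 129 against 0 and 2 on CAS.

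**Figure D3:**
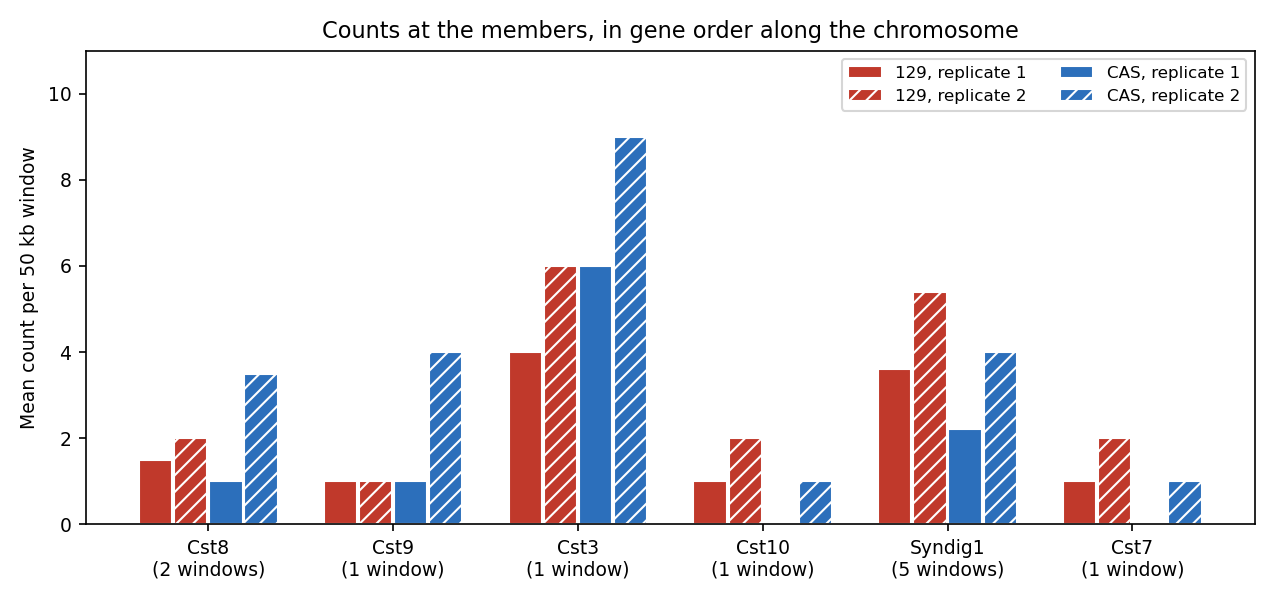
Mean count per 50 kb window (vertical axis) over the windows of each member, in chromosomal order, with 129 in red left of CAS in blue, and replicate 1 plain and replicate 2 hatched; Cst8 and Cst9 share a window. Syndig1 has higher bars on 129 in each replicate and Cst3 higher bars on CAS, while Cst10 and Cst7 differ by 1 count per replicate.

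By member, 3 of 6 (Cst7, Cst10 and Syndig1) were higher on 129 in both replicates, 1 (Cst3) was higher on CAS in both, and Cst8 and Cst9 were neither. Of the other 6 cystatin genes of the stretch, 0 were higher on 129 in both, 1 (Cstdc2, which shares the Cst3 window) was higher on CAS and 5 were neither. Cstl1, Cst11, Cstdc1 and Cst12 lie in 1 window and Cst13 in the Cst9 window, so these genes are not independent observations. Among the 18577 coding genes with a window, 13.3% were higher on 129 in both replicates and 14.2% on CAS. In order of count per window the members ran from Cst3, with a mean of 6.25 per column, over Syndig1 with 3.80 and Cst8 with 2.00, to Cst9 with 1.75 and Cst10 and Cst7 with 1.00 each. Cst10 and Cst7 had the same values, and in every other neighbouring pair of this order the ranges over the 4 columns overlap. The order of neighbours is thus not resolved.

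The remaining genes of the stretch set off the members. Before the cluster, from 147500001 to 148750000, 24 windows had 35 and 54 on 129 against 26 and 41 on CAS, shares of 57.4% and 56.8%. They are 41.4% of the windows and held 32.1% and 29.5% of the excess of the stretch, where parts leaning to CAS count as negative. In both replicates that was more than the interval from Cst10 to Syndig1 held (28.6% and 13.6%). The window of Nxt1, Gzf1 and part of Napb, at 148650001 to 148700000, had 5 and 7 on 129 against 4 and 5 on CAS, and was the second richest; Nxt1 acts in export of RNA from the nucleus, Gzf1 is a zinc finger repressor and Napb encodes a SNAP protein that recycles SNARE complexes. The next window, also over Napb, had 5 and 5 on 129 against 3 and 5 on CAS. The fifth richest window, at 148100001 to 148150000, holds no annotated gene and had 3 and 7 on 129 against 3 and 4 on CAS. The window of Thbd and Cd93, genes of endothelial surface proteins, had 3 and 3 on each allele. Past Syndig1, 9 windows with the zinc finger genes Zfp120, Zfp937, Zfp442 and Zfp345 had 9 and 16 on 129 against 10 and 11 on CAS, shares of 47.4% and 59.3% that lie on opposite sides of 50%. The windows at 148000001 to 148050000, where Foxa2 lies, and 149250001 to 149300000 are not among the 58 and were not analysed here.

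**Figure D4:**
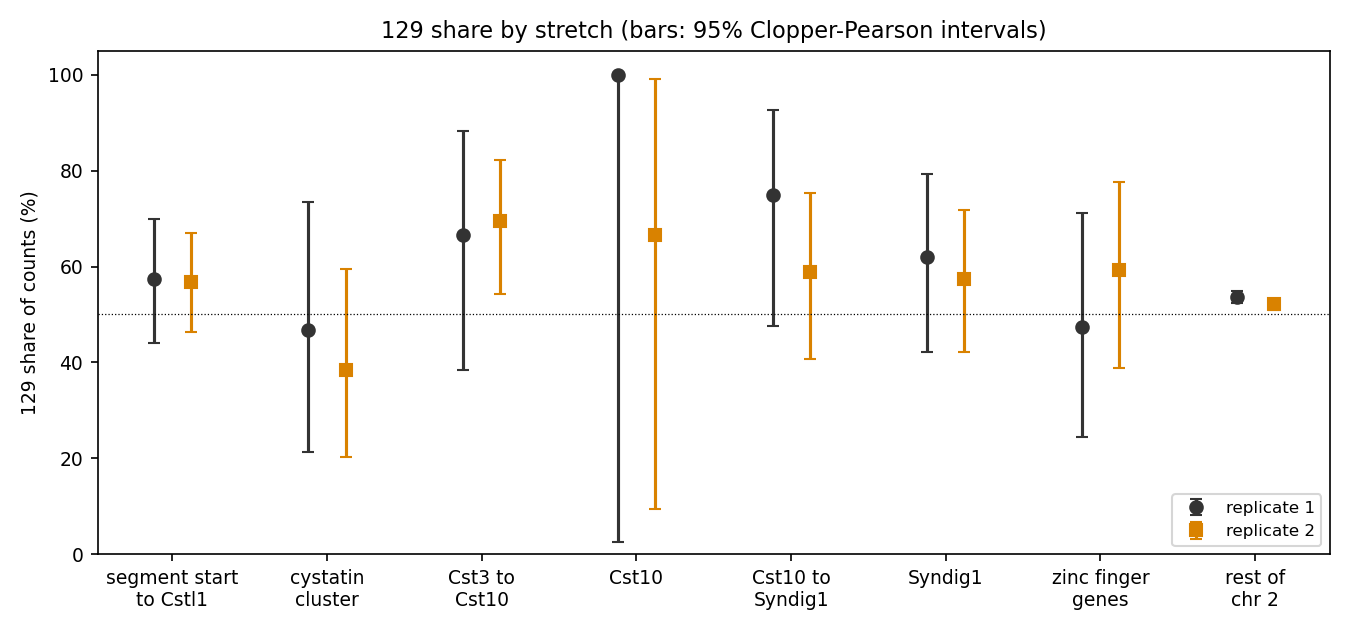
129 share of counts in percent (vertical axis) for 7 consecutive parts of the stretch and for the rest of chromosome 2, with circles for replicate 1, squares for replicate 2 and bars for 95% Clopper-Pearson intervals; the dotted line marks 50%. The cystatin cluster lies at 46.7% and 38.5%, below the line. The parts from Cst3 to the end of Syndig1 lie above it in both replicates, as do the part before the cluster and the rest of chromosome 2. For the 7 parts, every interval includes 50% except that of Cst3 to Cst10 in replicate 2.

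The excess was larger in windows without a coding gene. Of the 58 windows, 37 (63.8%) overlap no coding gene, against 36.5% on chromosome 2 as a whole. These 37 had 43 and 89 on 129 against 24 and 54 on CAS, shares of 64.2% (interval 51.5 to 75.5%) and 62.2% (53.8 to 70.2%). The 21 windows with a coding gene had 49 and 72 on 129 against 40 and 63 on CAS, shares of 55.1% (44.1 to 65.6%) and 53.3% (44.6 to 62.0%). The intervals of the 2 classes overlap in each replicate, and the difference was not tested. Most of the excess in windows without a coding gene came from the bin from 149000001 to 150000000, on which the stretch was chosen. The split is thus not separate from the excess of that bin. On chromosome 2 as a whole, windows without a coding gene had shares of 53.6% and 52.9% and windows with one had 53.8% and 52.0%.

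Set against the rest of the table at 1 Mb, the bin of Cst10 and Syndig1 lay at the 129 edge of its chromosome. Its log2 ratios were 1.24 in replicate 1 and 0.86 in replicate 2, and the median bin of chromosome 2 had 0.18 and 0.10. Among the 128 bins of chromosome 2 with 20 or more counts in each replicate it ranked 1 in both replicates. Among all 1826 such bins it ranked 9 in replicate 1 and 20 in replicate 2, and 4 bins had a higher or equal ratio in both. The 5 bins with the most similar pair of log2 ratios, by Euclidean distance over the 2 replicates, all lie on chromosome 10. The nearest, from 35 to 36 Mb with Amd2, had 14 and 26 on 129 against 6 and 14 on CAS at a distance of 0.08. The others hold Akap7 and Epb41l2 (25 to 26 Mb), Hey2 and Ncoa7 (30 to 31 Mb), Cited2 and Heca (17 to 18 Mb), and Hivep2 and Adgrg6 (14 to 15 Mb), at distances of 0.21 to 0.30.

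**Figure D5:**
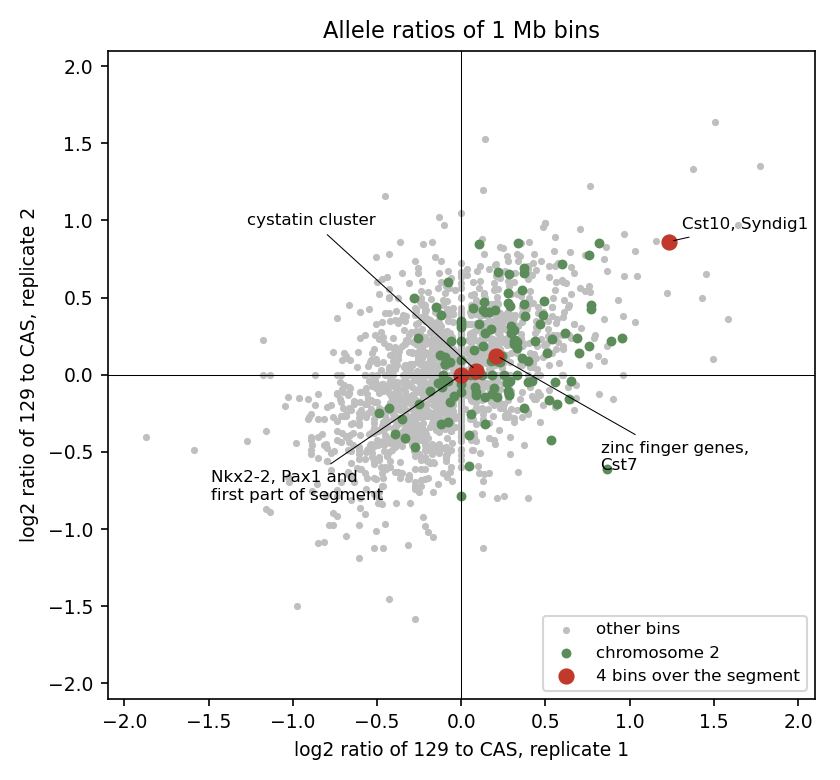
Log2 ratio of 129 to CAS counts in replicate 1 (horizontal axis) and replicate 2 (vertical axis) for the 1826 bins of 1 Mb with 20 or more counts in each replicate, with chromosome 2 in green and the 4 bins that overlap the stretch in red. The bin of Cst10 and Syndig1 sits at 1.24 and 0.86, and its 3 neighbours lie near 0.

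In edgeR's quasi-likelihood fit over all 2095 bins that passed the count filter, 0% passed an adjusted p of 0.05, and 50 bins had an unadjusted p below 0.05. DESeq2's Wald test also called 0, and 6 bins had such an unadjusted p. With the replicate as a block, since both alleles of a replicate come from 1 library, edgeR called 7 bins (0.334%), 6 of them higher on 129 (0.286%), and the bin of Cst10 and Syndig1 was among these 6. That call is what singled out the stretch, so nothing is read from it here. The other 3 bins over the stretch were not called in either fit, with log2 differences of 0.03, 0.08 and 0.20 in chromosomal order without the block, where the bin of Cst10 and Syndig1 had 1.01. When bins of the same size started 500 kb further along, the blocked edgeR fit called 0 bins (153 by unadjusted p), and the bins from 148500001 and 149500001 had log2 differences of 0.51 and 0.56. By description, the first 500 kb of the bin of Cst10 and Syndig1 had 11 and 33 counts on 129 against 2 and 12 on CAS. The following 500 kb, with most of Syndig1, had 25 and 42 on 129 against 13 and 29 on CAS. With 2 columns per allele an exact two-sided permutation test of a single bin that ignores the pairing by replicate cannot go below p = 0.333. A test that swaps alleles only within each replicate has fewer arrangements, so its floor is higher still.

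At the 50 kb resolution of the table edgeR tested 40 windows after its count filter and called 0%, also 0 by unadjusted p. Without the filter it called 0 of 34417, of which 910 had an unadjusted p below 0.05. Limma on centred square roots called 78 of 34417 windows (0.227%), 33 higher on 129 (0.0959%) and 45 higher on CAS (0.131%), and 1 of the 33 lies in the stretch, at 149150001 to 149200000 between Cst3 and Cst10. That window is part of the bin on which the stretch was chosen, so nothing is read from its call.

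Most partners of the members elsewhere in the genome were higher on neither allele in both replicates, as were most coding genes with a window (11964 of 18577). Over all coding genes with a window, 13.3% were higher on 129 in both and 14.2% on CAS. Of 14 further genes of the cystatin superfamily, 8 had a window: Kng1, a kininogen gene, was higher on 129 in both replicates by 1 count (12.5% of the list), 0 were higher on CAS, 5 were neither and 2 (Cst6 and Csta1) were at 0 in all columns. The other 6, stefin genes of chromosome 16, were not analysed here. Of 13 genes of lysosomal proteases, most of them targets of cystatins, 1 was higher on 129 (7.69%), 3 on CAS (23.1%) and 9 were neither. Ctsh, the gene of cathepsin H, had 3 and 3 on 129 against 5 and 9 on CAS, and Ctsd and Ctsl differed by 1 or 2 counts. On chromosome 2 itself Ctsa had 6 and 2 on 129 against 3 and 3 on CAS, and Ctsz had 2 and 2 on each allele. Of 13 genes of the Syndig1 family and of AMPA receptors with a window, 3 were higher on 129 (23.1%), 0 on CAS, 9 were neither and 1 (Syndig1l) was at 0 in all columns. Tmem91, a relative of Syndig1, had 5 and 6 on 129 against 2 and 1 on CAS. Gria2, the gene of an AMPA receptor subunit, had 4 and 10 on 129 against 3 and 6 on CAS. Shisa9, the last of the 3, had 1 on 129 and 0 on CAS in each replicate over 7 windows. The median log2 ratio was 0.00 in both replicates for the Syndig1 list and for all coding genes, and -0.48 and 0.00 for the proteases.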

How the data were processed

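Per the labels, ATAC-seq libraries were made from 2 replicates of F121-6 stem cells and sequenced as paired ends. The mm10 build and the tools Bowtie2, MACS2, bedtools and SAMtools stand in the submitters' processing notes, with neither role nor version. How alleles were assigned and windows counted or filtered is "not given in the sources used here". As deposited, counts are whole numbers with no visible normalization, 1 column per allele and replicate.

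Genes were placed with RefSeq on GRCm38.p6, and a window belongs to a gene that shares a base with it. Windows were summed to 1 Mb bins and tested on the whole table with edgeR 4.0.16 (quasi-likelihood test, TMM, filterByExpr with a minimum count of 10, Benjamini-Hochberg, threshold 0.05). Alternatives were the replicate block, DESeq2 1.42.0, other bins, no filter, and limma 3.58.1 on square roots (count plus 0.375), each column centred on its mean over windows with a count. The fits were tested on simulated data, in which DESeq2 recovered fewer of the smaller changes than edgeR, and the 50 kb fits with the replicate block recovered none, so that a lack of calls from those blocked fits says nothing. The replicate number pairs the alleles, which come from 1 library; in 2095 bins their deviations from the allele means correlated at r = 0.794. Genes were named by a rule (the members, genes of windows differing by 2 or more counts in both replicates, the 5 richest windows, fixed lists). The members, lists and bin size were chosen with earlier results of these data known.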

Additional observations from a re-analysis of the deposited data

How the results depend on the processing

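The direction to 129 was the same for the stretch and for the bin from 149000001 to 150000000 under every setting tried, but the size was not. The stretch was chosen on the 129 excess of that bin in these same counts. The shared direction was thus largely fixed by that choice and is no separate support. The share of the stretch, 58.3% with both replicates summed, was 57.9 to 59.0% with 1 replicate left out, 59.4% without the window with the highest count (the window of Cst3), 55.3% with 500 kb added on each side, 53.2% without the bin from 149000001 and 56.4% without the 4 windows from 149000001 to 149200000, a setting chosen after seeing the data. The share of the bin, 66.5%, was 64.7 to 70.6% with 1 replicate left out, and 58.2%, 59.3%, 61.9% and 58.9% when the bin was moved by -500, -250, 250 and 500 kb. Requiring 2 or more counts left 5 of 15 windows higher in both replicates on 129 and 1 of 2 on CAS. In edgeR the calls depended on the pairing of alleles by replicate: 0 bins of 1 Mb were called without the replicate block, 7 with the block, 7 with the block and DESeq2 size factors, 4 and 8 with the block in bins of 500 kb and 2 Mb, and 0 in bins of 1 Mb starting at 500 kb. DESeq2's Wald test called 0 without the block and 0 with it, a blocked fit added after seeing the data. The log2 difference of the bin was 1.01 without the block, 1.01 with it, 1.00 with it and DESeq2 size factors, and 1.06 in DESeq2's Wald test with the block. Of these, the edgeR fits with the block called it and the others did not, and since the stretch was chosen on that call, nothing is read from it. With 1 replicate left out it was 0.88 to 1.33, as values with no test. Limma on centred square roots called 78 windows of 50 kb without the replicate block and 0 with it, where edgeR called 0. The cause of these changes was not tested. The members other than Syndig1 differ by 0 to 3 counts per replicate, Cst3 included, and the 95% interval of the share of each of the 6 members includes 50%.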

Other observations

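The 500 kb on each side of the stretch hold developmental and metabolic genes. Before it, the 10 windows that hold Xrn2, Nkx2-2, Nkx2-4 and Pax1 had 18 and 26 counts on 129 against 22 and 31 on CAS in replicates 1 and 2, 129 shares of 45.0% and 45.6%. The Pax1 window, 147350001 to 147400000, had 5 and 5 on 129 against 4 and 8 on CAS. Pax1 and the homeobox genes Nkx2-2 and Nkx2-4 act in the embryo. After it, 10 windows that hold Cst7, Acss1, Pygb and the replication gene Gins1 had 31 and 29 on 129 against 26 and 29 on CAS, shares of 54.4% and 50.0%. The window of Acss1 and Vsx1 was the richest of these, with 9 and 8 on 129 against 7 and 8 on CAS.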
